A study of Homo sapiens with 4 samples.

Results

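The genes of fatty acid synthesis and oxidation were followed in LNCaP cells, a human prostate cancer cell line that came from a metastasis in a lymph node and responds to androgen. A list of 36 genes was taken by symbol from the 60675 genes counted: 17 of synthesis, 4 acyl-CoA synthetases that activate fatty acids for either fate, and 15 of oxidation. All 36 were found, and 35 passed the filter on low counts. The exception was ACSL5, with 5 and 5 fragments in the vehicle libraries and 5 and 0 in the CPI-455 libraries.

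Cells received 1 nM R1881, a synthetic androgen, for 72 h, either with vehicle (R1881 + vehicle, 2 replicates) or with 50 µM CPI-455, an inhibitor of the KDM5 family of H3K4 demethylases (R1881 + CPI-455, 2 replicates). Both groups carried the androgen, so each difference is that of the inhibitor added to androgen, in one cell line at one dose and one time. In bulk libraries, fewer cells with a transcript and less of it per cell cannot be told apart. The medium held hormone-depleted serum, either dialyzed or charcoal-stripped, and which of these each culture had is not given in the sources used here. The methods call the samples biological replicates.

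Fatty acid synthesis starts from citrate, which ATP citrate lyase splits to acetyl-CoA. Acetyl-CoA carboxylase makes malonyl-CoA from it and fatty acid synthase builds palmitate. Desaturases and the elongation cycle of the endoplasmic reticulum then make longer and unsaturated fatty acids. Oxidation runs the other way: an acyl-CoA synthetase activates the fatty acid, the carnitine shuttle carries it into the mitochondrion, and a repeated cycle of reactions shortens it while electrons pass to the electron transfer flavoprotein. Very long and branched chains are shortened in peroxisomes. Prostate cancer cells are known for high lipogenesis that androgen raises through the transcription factors SREBP, and for oxidation of branched-chain fatty acids through AMACR.

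The vehicle libraries held 19623553 and 20690819 counted fragments and the CPI-455 libraries 9522920 and 5401588, so that 1 fragment was worth 0.0458 to 0.198 normalised CPM, the count scaled to library size. Replicates correlated across genes (log2 CPM) at r = 0.989 with vehicle and 0.918 with CPI-455. The protein genes of the mitochondrial genome took 1.84% and 1.41% of fragments with vehicle but 0.0948% and 0.0791% with CPI-455, and MALAT1, a nuclear non-coding RNA, took 0.114% and 0.0884% against 4.95% and 6.49%. This shift in RNA composition moved with the treatment, and its part in the results below was not tested. All 9 luminal prostate markers were counted in every library. Of these, 6 were called lower with CPI-455 at an FDR below 0.05 and at least 2-fold, a rule that called 21.3% of all genes tested lower, among them KLK3, which encodes prostate-specific antigen (404 and 357 CPM with vehicle, against 107 and 136 with CPI-455). KLK2, the neighbouring kallikrein, was higher by less than 2-fold (log2 fold change 0.56, FDR 0.00834). Of 7 markers of basal, stromal, immune or endothelial cells, KRT5 was at 0 in every library and COL1A1 alone passed the filter (4.97 and 4.03 CPM with vehicle, 10.1 and 7.73 with CPI-455, log2 fold change 1.00, FDR 0.0195), and the other 5 had at most 15 fragments in a library.

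The synthesis genes moved in both directions, more of them down than up, and the large falls were in chain elongation and desaturation. ELOVL2 and ELOVL7, elongases of very long chains, were 5.09-fold and 4.44-fold lower, while TECR, the enoyl reductase that closes the same elongation cycle, rose 3.07-fold. FASN, fatty acid synthase, did not pass the test, and SCD, stearoyl-CoA desaturase, was 1.40-fold lower. The oxidation genes were split as well. CPT2, which releases acyl groups from carnitine inside the mitochondrion, was 5.15-fold lower, and ACADVL, very long chain acyl-CoA dehydrogenase, was 4.24-fold higher.

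Of the 17 synthesis genes, CPI-455 gave 3 called lower and 1 called higher, where a call needed an FDR below 0.05 (edgeR quasi-likelihood test, Benjamini-Hochberg over the 17600 genes tested) and a change of at least 2-fold. Across all genes tested the same rule called 21.3% lower and 21.0% higher. Changes under 2-fold at an FDR below 0.05 were lower in 8 synthesis genes and higher in 3, and 2 did not pass, so that 11 of 17 were lower and 4 of 17 higher at any size. Across all genes tested 32.8% were lower and 29.8% higher by that criterion. After removal of the trend of each library's values with exon length and GC content (a smooth fit), 5 of 17 synthesis genes were lower (ACLY, FADS1, FADS2, ELOVL2 and ELOVL7) and 3 higher, against 29.3% and 31.6% of all genes tested. With either vehicle library left out, fewer synthesis genes and a smaller share of all genes tested were lower. With either CPI-455 library left out, neither fell. Each of these fits left 1 library in a group. The median log2 fold change of the synthesis genes stayed between -0.53 and -0.47 in them. Of the 15 oxidation genes, 3 were called lower and 1 higher, 1 was lower and 3 were higher by less than 2-fold, and 7 did not pass. At any size 4 were thus lower and 4 higher, and with the length and GC trend removed 2 were lower and 7 higher. The number lower at any size was 7 with library totals and 2 with upper-quartile normalization, against 37.7% and 28.0% of all genes tested. It fell without vehicle replicate 2 and rose without CPI-455 replicate 2, as did the share of all genes tested. Those 2 fits left 1 library in a group. In the acyl-CoA synthetases, 1 of 3 tested was called lower, 1 was lower by less than 2-fold and 1 did not pass.

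The median log2 fold change, coded as CPI-455 minus vehicle, was -0.48 over the synthesis genes with quartiles of -0.74 and 0.21. Over the oxidation genes it was -0.18 with quartiles of -0.44 and 0.51, and over all genes tested it was -0.04 with quartiles of -0.96 and 0.94. The quartiles of both lists lay within those of all genes tested. The shares called were 17.6% lower and 5.88% higher for synthesis, and 3 of 15 lower and 6.67% higher for oxidation. Over all genes tested they were 21.3% lower and 21.0% higher. For lists this short, both shares called lower were close to 21.3%, while both shares called higher were below 21.0%. These differences were not tested. Without CPT2, AMACR, ECI2 and ETFDH, which share more than 10% of their counted exon bases with another gene, 1 oxidation gene (MLYCD) remained called lower. The sign of the oxidation median depended on the treatment of exon length and GC content: with the trend on both removed, the median was 0.25 for oxidation and -0.16 for synthesis.

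**Figure D1:**
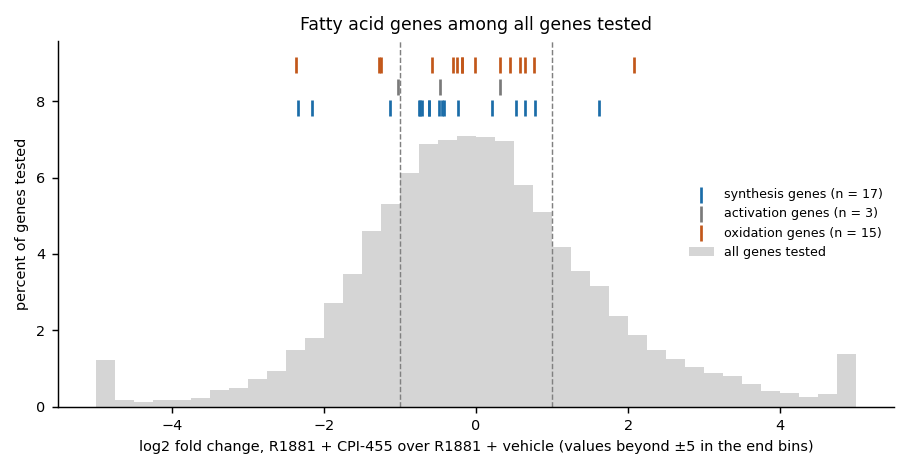
Distribution of log2 fold changes (CPI-455 over vehicle) over the 17600 genes tested, as percent of genes in bins of 0.25, with the 17 synthesis, 3 activation and 15 oxidation genes as ticks above it. Dashed lines mark 2-fold. Most members sit between the dashed lines, and the ticks beyond them include ELOVL2, ELOVL7 and CPT2 on the left and TECR and ACADVL on the right.

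The 5 genes that the results turn on most are given by their promoter windows, from RefSeq on GRCh38.p14, so that the start sites of genes that fell and of genes that rose can be set side by side. Each window runs from 250 bases before to 50 bases after the most upstream start annotated in RefSeq. It is on the strand of the gene, from 5′ to 3′. In the annotation used for counting, TECR starts at chr19:14517085 and CPT2 at chr1:53196429, both upstream of their windows. Capitals mark the GC box GGGCGG on either strand, a motif bound by SP factors, with overlapping matches merged. The windows are chr6:11044256-11044555 (- strand) for ELOVL2, chr5:60844220-60844519 (- strand) for ELOVL7, chr1:53196574-53196873 (+ strand) for CPT2, chr19:14529310-14529609 (+ strand) for TECR and chr17:7216875-7217174 (+ strand) for ACADVL.
ELOVL2: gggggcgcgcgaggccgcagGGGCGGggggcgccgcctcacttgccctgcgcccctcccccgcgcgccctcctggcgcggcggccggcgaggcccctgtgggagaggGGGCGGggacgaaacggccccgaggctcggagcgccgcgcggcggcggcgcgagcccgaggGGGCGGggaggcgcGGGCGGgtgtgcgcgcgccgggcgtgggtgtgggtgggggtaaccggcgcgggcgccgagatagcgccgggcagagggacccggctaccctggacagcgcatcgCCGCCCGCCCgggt
ELOVL7: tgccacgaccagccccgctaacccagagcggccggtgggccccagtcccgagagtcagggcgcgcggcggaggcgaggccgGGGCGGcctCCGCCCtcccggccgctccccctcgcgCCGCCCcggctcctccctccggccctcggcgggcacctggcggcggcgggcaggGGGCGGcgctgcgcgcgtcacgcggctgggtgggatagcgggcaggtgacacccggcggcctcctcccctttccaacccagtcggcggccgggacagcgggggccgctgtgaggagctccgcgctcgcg
CPT2: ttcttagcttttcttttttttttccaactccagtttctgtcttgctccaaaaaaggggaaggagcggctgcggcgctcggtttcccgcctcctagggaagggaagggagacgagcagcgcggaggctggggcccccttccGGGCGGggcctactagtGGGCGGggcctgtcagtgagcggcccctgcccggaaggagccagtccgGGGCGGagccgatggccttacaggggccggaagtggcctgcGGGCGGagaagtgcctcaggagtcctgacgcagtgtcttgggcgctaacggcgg
TECR: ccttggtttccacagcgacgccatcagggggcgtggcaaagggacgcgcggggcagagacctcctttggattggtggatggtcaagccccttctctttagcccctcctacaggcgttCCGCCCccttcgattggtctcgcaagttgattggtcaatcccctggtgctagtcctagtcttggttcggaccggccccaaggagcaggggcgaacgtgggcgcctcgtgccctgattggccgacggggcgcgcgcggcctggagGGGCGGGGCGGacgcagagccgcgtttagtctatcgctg
ACADVL: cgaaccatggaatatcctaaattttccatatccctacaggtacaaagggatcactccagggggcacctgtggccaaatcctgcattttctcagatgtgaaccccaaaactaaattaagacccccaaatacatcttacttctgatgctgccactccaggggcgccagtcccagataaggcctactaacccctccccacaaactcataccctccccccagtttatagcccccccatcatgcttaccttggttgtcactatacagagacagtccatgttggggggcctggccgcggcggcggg

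The window of ELOVL2 held 6 GC boxes and 83.7% G and C, that of ELOVL7 4 boxes and 80.7%, that of CPT2 4 boxes and 65.0%, and that of TECR 3 boxes and 65.3%. The window of ACADVL held no GC box and 52.7% G and C. Windows were found for 33 of the 36 genes, without FASN, ETFDH and DECR1. A GC box lay in 26 of these 33 (78.8%), against 69.1% of 12071 windows of genes tested, 1 window a gene. The CCAAT box, CCAAT on either strand, lay in 12 (36.4%, against 36.4%), the E-box CACGTG in 1, ELOVL5 (3.03%, against 9.94%), and the nuclear receptor motif AGGTCA on either strand in 2, ELOVL6 and ACSL5 (6.06%, against 9.71%). The sterol response element core, TCACNCCAC on either strand, lay in none of the 33 and in 1.01% of the windows of genes tested. A match describes letters and is not a bound site.

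Compared per kilobase of counted exon, the synthesis genes held the highest levels with vehicle. SCD had 116 ± 0.288 CPM per kilobase (SD, n = 2), FASN 56.0 ± 0.425 and the trifunctional protein subunit HADHA 54.8 ± 6.47. FASN and HADHA did not differ beyond their spread. ACLY, ATP citrate lyase, followed at 45.2 ± 0.814 and ELOVL5 at 41.1 ± 0.410, both above ACADVL at 32.7 ± 3.78. The lowest levels with vehicle, apart from ACSL5, were those of MLYCD (1.07 ± 0.124), ACACB (1.47 ± 0.000639) and AMACR (1.48 ± 0.225). The last 2 of these did not differ beyond their spread. AMACR and CPT2 share 64.8% and 29.9% of their counted exon bases with other genes. Fragments overlapping several genes were not counted, so the levels and ranks of both read too low on full exon length. With CPI-455 the order changed at the top: ACADVL stood first at 138 ± 7.42 CPM per kilobase, before SCD at 82.9 ± 0.752 and FASN at 64.5 ± 11.5. TECR moved from rank 12 of 36 with vehicle to rank 5, ELOVL2 from rank 17 to rank 30 and CPT2 from rank 24 to rank 31.

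**Figure D2:**
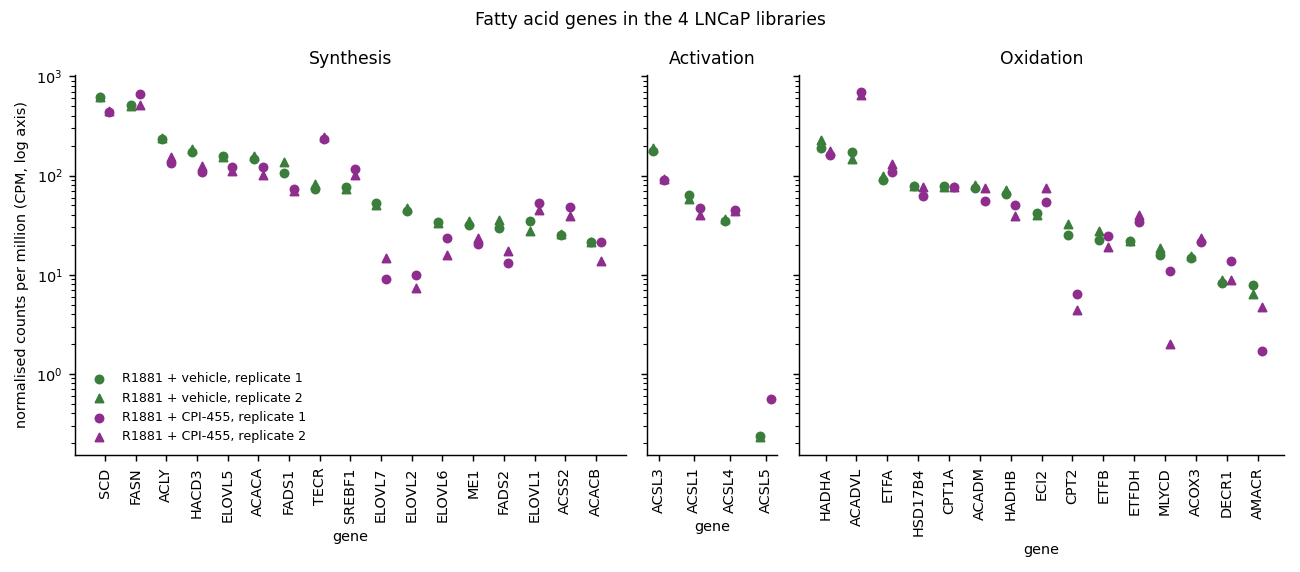
Normalised CPM (log axis) of the 36 genes in the 4 libraries, ordered within each class by their vehicle mean, with circles for replicate 1 and triangles for replicate 2. The CPI-455 points of ELOVL7, ELOVL2 and CPT2 lie far below their vehicle points and those of TECR and ACADVL far above, and the missing point of ACSL5 is a library with 0 fragments.

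At the entry to synthesis, the enzymes that supply acetyl-CoA and NADPH did not move together. ACLY measured 233 and 239 CPM with vehicle, against 134 and 155 with CPI-455, 1.63-fold lower (log2 fold change -0.71 ± 0.118 SE, FDR 0.000642 by edgeR). ACSS2, which makes acetyl-CoA from acetate, measured 25.3 and 25.5 CPM with vehicle, against 47.7 and 38.9 with CPI-455, 1.71-fold higher (log2 fold change 0.78, FDR 0.00254). Neither gene overlapped between the groups, and they moved in opposite directions. ME1, the cytosolic malic enzyme that yields NADPH, measured 31.9 and 35.0 CPM against 20.6 and 23.2 (log2 fold change -0.62, FDR 0.0103). With the length and GC trend removed ME1 was at -0.25 and did not pass (FDR 0.194).

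The core of palmitate synthesis changed little beside these. ACACA, the acetyl-CoA carboxylase of lipogenesis, measured 148 and 158 CPM with vehicle, against 123 and 101 with CPI-455 (log2 fold change -0.45, FDR 0.0136), and with the length and GC trend removed it was at -0.15 and did not pass (FDR 0.337). ACACB, whose malonyl-CoA holds back the carnitine shuttle, measured 21.3 and 21.3 CPM against 21.6 and 13.7. Its groups overlapped, the test was not passed (FDR 0.382), and the estimate went from -0.64 to 0.02 on the log2 scale as single libraries were left out. FASN measured 510 and 505 CPM with vehicle, against 659 and 511 with CPI-455, so that CPI-455 replicate 2 lay close to the vehicle libraries and replicate 1 above them (log2 fold change 0.21 ± 0.131 SE, FDR 0.197). SREBF1, which encodes the SREBP-1 transcription factors of lipogenesis, measured 77.4 and 73.3 CPM against 116 and 102 (log2 fold change 0.53, FDR 0.00459), and it shares 6.92% of its counted exon bases with RAI1 on the other strand.

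All 3 desaturases of the member list were lower with CPI-455. Outside that list, FADS3 rose by 2.27 on the log2 scale (FDR 3.87e-06), and SCD5 did not pass the test (-0.39, FDR 0.0770). SCD5 was named after its values were seen. SCD, which makes monounsaturated fatty acids, measured 623 and 621 CPM with vehicle, against 442 and 448 with CPI-455 (log2 fold change -0.48 ± 0.101 SE, FDR 0.00242). Replicates differed little and the groups stood apart, but with the length and GC trend removed the value was -0.16 at an FDR of 0.155. FADS1, the delta-5 desaturase of polyunsaturated fatty acids, measured 107 and 136 CPM against 73.3 and 70.2 (log2 fold change -0.76, FDR 0.00140). FADS2, the delta-6 desaturase, measured 29.4 and 35.9 CPM against 13.0 and 17.2 (log2 fold change -1.13 ± 0.208 SE, FDR 0.00120). The call of FADS2 rested on the 2-fold threshold and was lost without vehicle replicate 2 (-0.95) and without CPI-455 replicate 1 (-0.92). FADS1 and FADS2 lie on opposite strands with overlapping exons (5.57% and 4.89% of their counted bases are shared), and the counting used no strand.

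Elongation held the largest falls of the synthesis list. The elongases add the carbons in the first step of the cycle, and HACD and TECR proteins dehydrate and reduce the intermediate. ELOVL2, an elongase of polyunsaturated chains (chr6:10980759-11044314, - strand), measured 43.6 and 46.8 CPM with vehicle, against 10.0 and 7.34 with CPI-455. It was 5.09-fold lower (log2 fold change -2.35 ± 0.200 SE, FDR 1.03e-05), and the lowest vehicle library was far above the highest CPI-455 library. ELOVL7, an elongase of saturated very long chains that androgen is known to raise in prostate cancer cells (chr5:60751791-60844389, - strand), measured 52.4 and 49.9 CPM against 9.11 and 14.7. It was 4.44-fold lower (log2 fold change -2.15 ± 0.220 SE, FDR 2.97e-05). Both calls held under every alternative, and neither gene shares exon bases with another gene. With the length and GC trend removed the changes were -1.91 and -1.70.

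The other elongation genes moved less or the other way. ELOVL6, which takes palmitate to stearate, measured 34.3 and 32.9 CPM with vehicle, against 23.7 and 15.7 with CPI-455 (log2 fold change -0.74, FDR 0.0114), and it would have been called at -1.10 without CPI-455 replicate 1. ELOVL5, for polyunsaturated chains, measured 158 and 156 CPM against 122 and 112 (log2 fold change -0.42, FDR 0.00980). HACD3, a 3-hydroxyacyl-CoA dehydratase, measured 174 and 184 CPM against 110 and 125 (log2 fold change -0.62, FDR 0.00152). ELOVL1, for saturated very long chains, was higher at 52.5 and 44.8 CPM against 35.0 and 27.8 with vehicle (log2 fold change 0.64, FDR 0.00920). None of these 4 genes passed the test with the length and GC trend removed. The values were then -0.22 for ELOVL6 (FDR 0.410), -0.06 for ELOVL5 (FDR 0.686), -0.19 for HACD3 (FDR 0.123) and 0.36 for ELOVL1 (FDR 0.0635).

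TECR (chr19:14517085-14565980, + strand) measured 72.4 and 82.5 CPM with vehicle, against 232 and 244 with CPI-455. It was 3.07-fold higher (log2 fold change 1.62 ± 0.120 SE, FDR 4.84e-06), called under every alternative, and 1.70 on the log2 scale with the length and GC trend removed. Of its counted exon bases 80.2% lie outside the exons of its protein-coding transcripts in GENCODE release 44, so that a fragment counted for TECR need not come from coding mRNA. The same share was 0.225% for ELOVL2 and 4.24% for ELOVL7, with a median of 14.6% over protein-coding genes tested, 7.25% over genes called lower and 25.7% over genes called higher.

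**Figure D3:**
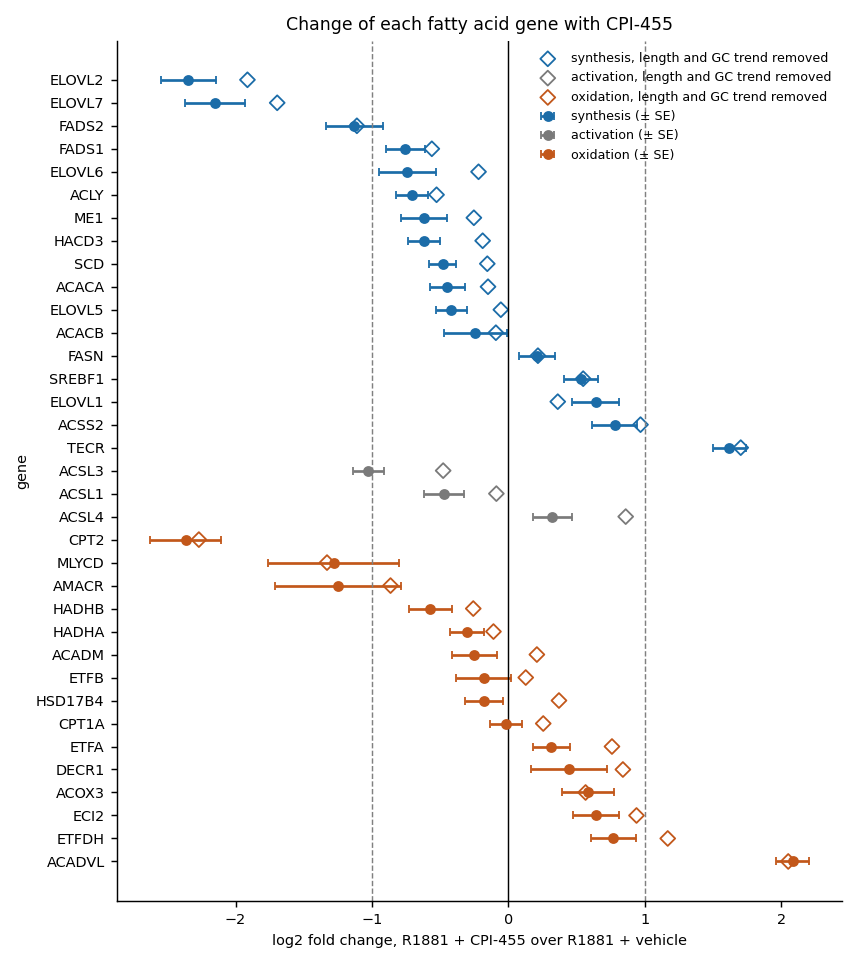
Log2 fold change (CPI-455 over vehicle) of the 35 genes tested, with SE bars on filled circles, and the change after removal of the exon length and GC trend as open diamonds. Dashed lines mark 2-fold. ELOVL2, ELOVL7, FADS2, CPT2, MLYCD, TECR and ACADVL lie beyond 2-fold by both estimates, and most other diamonds lie to the right of their circles.

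Of the acyl-CoA synthetases, ACSL3, a lipid droplet enzyme that androgen is known to induce, measured 179 and 191 CPM with vehicle, against 89.6 and 91.6 with CPI-455. It was 2.04-fold lower (log2 fold change -1.03 ± 0.114 SE, FDR 4.91e-05), with replicates close to each other and groups well apart. Its call rested on the 2-fold threshold: it was -0.97 without vehicle replicate 2 and -0.48 with the length and GC trend removed. ACSL1 measured 63.6 and 58.6 CPM against 47.3 and 40.1 (log2 fold change -0.47, FDR 0.0179). ACSL4, which prefers arachidonate, measured 34.8 and 36.4 CPM against 45.1 and 43.6 (log2 fold change 0.32, FDR 0.0772), with groups apart but the test not passed. With the length and GC trend removed ACSL4 passed at 0.86 (FDR 0.000605) and ACSL1 did not pass at -0.09 (FDR 0.630).

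In the carnitine shuttle, the enzymes on the outer and inner membrane gave different results. CPT1A, the outer membrane transferase that limits the rate of mitochondrial oxidation, measured 78.8 and 77.2 CPM with vehicle, against 76.5 and 77.5 with CPI-455 (log2 fold change -0.02 ± 0.120 SE, FDR 0.899). The groups overlapped, and the sign of this small value changed with the normalization. CPT2, the inner membrane transferase (chr1:53196429-53214197, + strand), measured 25 and 32.2 CPM against 6.41 and 4.36. It was 5.15-fold lower (log2 fold change -2.36 ± 0.260 SE, FDR 4.64e-05), was called under every alternative, and shares 29.9% of its counted exon bases with genes on the other strand, CZIB among them.

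MLYCD, malonyl-CoA decarboxylase, which removes the inhibitor of CPT1, measured 15.8 and 18.6 CPM with vehicle, against 11.0 and 1.98 with CPI-455. The last value is 10 fragments. The CPI-455 replicates lay far apart, replicate 1 nearer to the vehicle libraries than to replicate 2. The fitted log2 fold change was -1.28 ± 0.480 SE (FDR 0.0414). It was -0.64 without CPI-455 replicate 2 and not called, and without vehicle replicate 2 the FDR was 0.0555.

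The enzymes of mitochondrial beta-oxidation did not move as one. ACADVL (chr17:7217125-7225273, + strand), which starts the oxidation of long chains at the inner membrane, measured 172 and 146 CPM with vehicle, against 699 and 648 with CPI-455. It was 4.24-fold higher (log2 fold change 2.08 ± 0.122 SE, FDR 1.50e-06), was called under every alternative and shares 1.01% of its counted exon bases with DLG4. Of its counted exon bases 47.5% lie outside protein-coding transcripts. ACADM, for medium chains, measured 74.1 and 80.0 CPM against 55.0 and 75.8, and its groups overlapped (log2 fold change -0.25, FDR 0.208).

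HADHA and HADHB, the subunits of the trifunctional protein that carries out the later steps for long chains, lie head to head on chromosome 2. HADHA measured 191 and 226 CPM with vehicle, against 162 and 177 with CPI-455 (log2 fold change -0.30, FDR 0.0572), and HADHB measured 64.7 and 71.3 CPM against 51.1 and 39.5 (log2 fold change -0.57, FDR 0.0104). Both had groups apart and lower with CPI-455, and HADHB alone passed the test; the difference between them was not tested. HADHB was at -0.26 and did not pass with the length and GC trend removed (FDR 0.187). ECI2, an auxiliary enoyl-CoA isomerase for unsaturated chains, measured 42.1 and 40.4 CPM against 54.6 and 75.0 (log2 fold change 0.64, FDR 0.00862) and shares 29.8% of its counted exon bases with other genes. DECR1, the dienoyl-CoA reductase, measured 8.29 and 8.75 CPM against 13.8 and 8.92 and did not pass the test (log2 fold change 0.44 ± 0.278 SE, FDR 0.191). CPI-455 replicate 2 of DECR1 lay close to the vehicle libraries, and with the length and GC trend removed the gene passed at 0.84 (FDR 0.0301).

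Electrons of each acyl-CoA dehydrogenase pass to the flavoprotein of ETFA and ETFB and on to ubiquinone through ETFDH. ETFDH measured 21.7 and 22.0 CPM with vehicle, against 34.3 and 40.5 with CPI-455 (log2 fold change 0.77, FDR 0.00302), shares 13.8% of its counted exon bases with PPID and C4orf46, and passed 2-fold at 1.17 with the length and GC trend removed. ETFA measured 90.6 and 99.8 CPM against 108 and 130 (log2 fold change 0.31, FDR 0.0640). ETFB measured 22.4 and 27.7 CPM against 24.5 and 19.2, with overlapping groups (log2 fold change -0.18, FDR 0.460). ETFA passed the test at 0.76 with the length and GC trend removed (FDR 0.000218), and ETFB did not at 0.13 (FDR 0.601).

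Of the 3 peroxisomal genes, AMACR, the racemase of branched-chain fatty acids that is used as a prostate cancer marker, measured 7.91 and 6.37 CPM with vehicle, against 1.69 and 4.76 with CPI-455. These are 15 and 24 fragments with CPI-455, and the fitted log2 fold change was -1.25 ± 0.459 SE (FDR 0.0381). The call was lost without vehicle replicate 1 (FDR 0.280), without vehicle replicate 2 (FDR 0.122) and without CPI-455 replicate 1 (-0.58, FDR 0.125). The readthrough gene C1QTNF3-AMACR and another gene share 64.8% of its counted exon bases, where fragments overlapping both genes were not counted, so its count rests on the remaining exon bases. ACOX3, an oxidase of branched chains, measured 14.6 and 15.3 CPM against 21.5 and 23.6 (log2 fold change 0.58, FDR 0.0239). HSD17B4, the multifunctional enzyme of peroxisomal oxidation, measured 78.3 and 78.4 CPM against 62.1 and 77.1 (log2 fold change -0.18, FDR 0.292), with CPI-455 replicate 2 just under the vehicle libraries. With the length and GC trend removed HSD17B4 changed direction and passed the test at 0.37 (FDR 0.0194).

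Within each library the summed synthesis genes were set against the summed oxidation genes, a ratio that scaling between libraries cannot move. It was 2.62 and 2.56 with vehicle, against 1.60 and 1.46 with CPI-455. The mean log2 ratio was 1.37 ± 0.0241 (SD, n = 2) with vehicle and 0.61 ± 0.0966 with CPI-455, a difference of -0.76 that exceeds the spread between replicates and is given with no p-value. The synthesis sum was 2376 and 2428 CPM with vehicle, against 2209 and 2042 with CPI-455, and the oxidation sum was 908 and 950 CPM against 1381 and 1403. ACADVL alone made up 19.0% and 15.4% of the oxidation sum with vehicle and 50.6% and 46.2% with CPI-455. Without ACADVL and FASN, the members of each class with the highest CPM summed over the 4 libraries, the difference was -0.20. FASN had a mean of 507 CPM with vehicle and 585 with CPI-455. Leaving it out therefore takes more from the synthesis sum with CPI-455 and adds to this difference. The move from -0.76 to -0.20 therefore rests on leaving out ACADVL. The difference without ACADVL alone was not computed. FASN and SCD together held 46.3% to 49.8% of the synthesis sum in all 4 libraries.

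**Figure D4:**
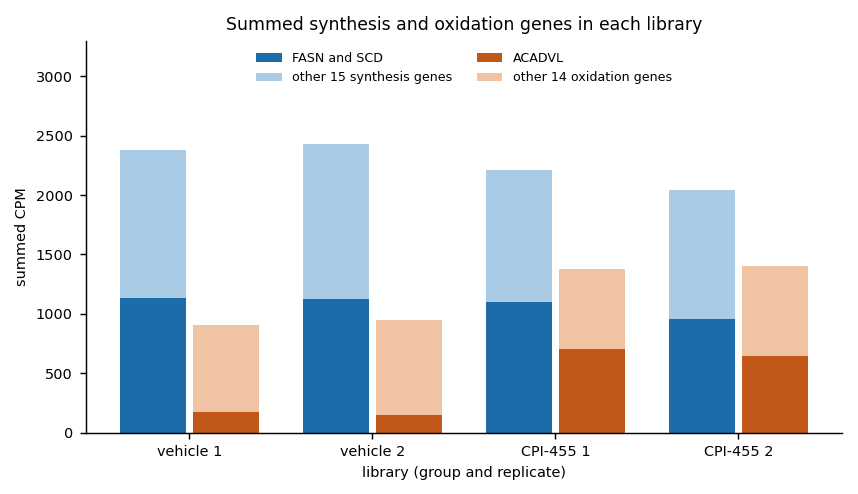
Summed CPM of the 17 synthesis genes (blue) and the 15 oxidation genes (orange) in each library, with FASN and SCD, and ACADVL, in the darker shade. The synthesis bars run from 2042 to 2428 CPM and the oxidation bars rise from 908 and 950 to 1381 and 1403, with the darker ACADVL part near the height of the other 14 genes in the CPI-455 libraries.

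Across the 35 genes tested, the log2 fold change and the share of counted exon bases outside protein-coding transcripts had a Spearman rho of 0.517, and over 13777 protein-coding genes tested rho was 0.294. For exon length rho was -0.105 and -0.139, and for GC content 0.274 and 0.192. These are correlations across genes of the same 4 libraries, and the part of non-coding exon sequence in the members' changes was not tested.

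**Figure D5:**
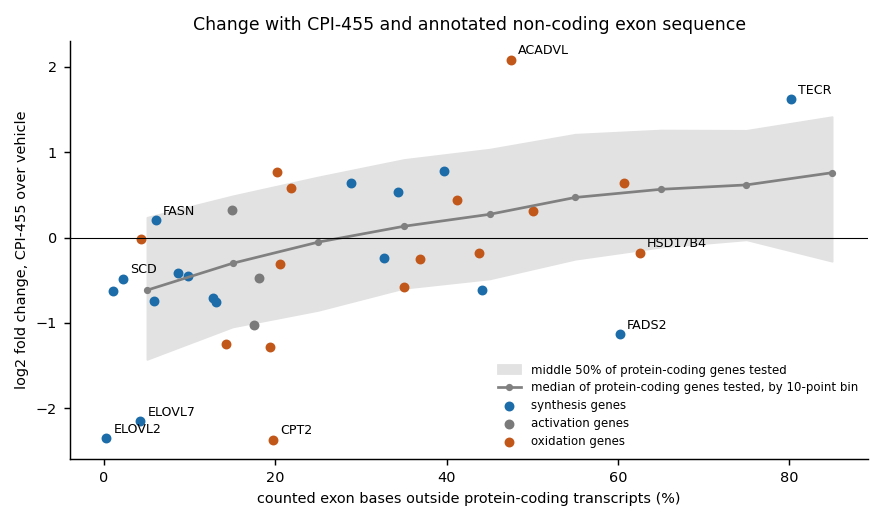
Log2 fold change (CPI-455 over vehicle) of the 35 genes tested against the percent of their counted exon bases outside protein-coding transcripts, over the median (line) and middle 50% (band) of protein-coding genes tested in bins of 10 points with at least 20 genes. The median of protein-coding genes tested climbs from -0.62 in the lowest bin to 0.76 between 80% and 90%. ELOVL2, ELOVL7, CPT2, FADS2, MLYCD, AMACR, HACD3 and HSD17B4 lie below the lower quartile of their bin. ACADVL, TECR and ETFDH lie above the upper one.

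Another 92 genes of the same pathways were read from 5 lists. Of these, 84 were tested, 18 (21.4%) were called lower and 18 (21.4%) higher, close to the shares over all genes, and their median log2 fold change was -0.04. In the list of other synthesis and elongation genes, 5 of 14 tested (35.7%) were called lower and 2 (14.3%) higher. Over all genes tested the shares were 21.3% and 21.0%. The elongase ELOVL4 fell by 2.50 on the log2 scale (FDR 1.68e-05) and the dehydratase HACD2 fell by 2.13 (FDR 3.87e-06). HSD17B12, the ketoacyl reductase of the elongation cycle, fell by 1.08 and by 0.53 with the length and GC trend removed, and was named after its values were seen. OXSM and MCAT, of mitochondrial fatty acid synthesis, fell by 2.25 and 1.5, and MCAT too was named after its values were seen. FADS3 rose by 2.27 (FDR 3.87e-06) and HACD1 by 1.03 (FDR 0.0146). HACD1 lost its call without vehicle replicate 1 (0.87, FDR 0.187), without vehicle replicate 2 (FDR 0.0650) and without CPI-455 replicate 2 (0.82). ELOVL3 and HACD4 were not tested, with at most 1 and 9 fragments in a library. Among the 6 elongases tested, ELOVL2, ELOVL4 and ELOVL7 were thus called lower, ELOVL5 and ELOVL6 were lower by less than 2-fold, and ELOVL1 was higher by less than 2-fold.

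Among 11 regulators of SREBP and lipogenesis tested, 2 (18.2%) were called in each direction, against 21.3% lower and 21.0% higher over all genes. MLXIPL, or ChREBP, the glucose-responsive activator of lipogenic genes, measured 13.4 and 9.80 CPM with vehicle, against 152 and 116 with CPI-455 (log2 fold change 3.54, FDR 1.29e-06). INSIG1, which holds SREBP in the endoplasmic reticulum, measured 77.6 and 76.6 CPM against 231 and 209 (log2 fold change 1.52, FDR 5.65e-06). MBTPS2, the protease that releases SREBP from the Golgi membrane, measured 94.1 and 110 CPM against 26.0 and 20.8 (log2 fold change -2.11, FDR 5.89e-06). MID1IP1, an activator of acetyl-CoA carboxylase, fell by 1.03 and was under 2-fold without CPI-455 replicate 2 (-0.94). These genes were named because they were called, so the 2 groups standing apart for each of them adds no support.

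For uptake, activation and storage, 8 of 25 genes tested (32.0%) were called lower and 7 (28.0%) higher. Over all genes tested 21.3% were called lower and 21.0% higher. DGAT2, MGLL and GPAM, of triacylglycerol synthesis and breakdown, were lower (log2 fold change -1.95, -1.82 and -1.78), and DGAT1 and the fatty acid transport proteins SLC27A3 and SLC27A1 were higher (1.56, 1.52 and 1.52). DGAT2 rested on 18 and 0 fragments with CPI-455 and MGLL on 15 and 2. DGAT2 was at -1.20 without CPI-455 replicate 2, the library at 0, and lost its call without vehicle replicate 2 (FDR 0.200) and with the length and GC trend removed (FDR 0.0604). MGLL was at -3.35 without CPI-455 replicate 1 and lost its call without vehicle replicate 1 (FDR 0.0919) and without vehicle replicate 2 (FDR 0.157). In other mitochondrial oxidation, 1 of 20 was called lower and 4 higher. CPT1B, the muscle form of the outer membrane transferase, measured 2.98 and 1.83 CPM with vehicle, against 42.6 and 46.2 with CPI-455 (log2 fold change 4.20, FDR 1.83e-06), and 66.4% of its counted exon bases are shared with the readthrough gene CHKB-CPT1B. CPT1C rose by 1.92 and ACAD8 by 1.03, which was under 2-fold without vehicle replicate 2 (0.94) and without CPI-455 replicate 1 (0.81). PPARA, a nuclear receptor that drives oxidation genes, measured 34.8 and 39.1 CPM against 10.8 and 11.1 (log2 fold change -1.76, FDR 3.71e-05). In other peroxisomal oxidation, 2 of 14 (14.3%) were called lower and 3 (21.4%) higher. The lower ones were CROT and ABCD3 (-1.5 and -1.33, the latter -0.77 with the length and GC trend removed). The higher ones were DECR2, ACAA1 and ABCD4 (1.31, 1.29 and 1.23).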

How the data were processed

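RNA-seq was performed by the authors in 4 LNCaP libraries, 2 per group, grouped and numbered by the sample labels. Per the labels, methods and file headers, the authors trimmed reads with Trim Galore, used STAR for alignment to GRCh38, and counted exonic fragments with featureCounts v1.5.0-p1 and Ensembl release 83. The deposited values are raw fragment counts per gene. Strand was not used, and fragments on several places or genes were left out. The vehicle is given as DMSO by the methods. Whether RNA was polyA-selected is not given in the sources used here.

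Symbols were matched for 56558 genes. Counts were analysed with edgeR 4.0.16 (R 4.3.3): filterByExpr (minimum count 10), TMM, and the quasi-likelihood test with Benjamini-Hochberg adjustment over 17600 genes, without covariates. SE is the absolute log2 fold change over the square root of F. CPM is normalised by TMM, and a level of 3 fragments was 0.137 to 0.595 CPM. The test was checked on simulated counts. Alternatives used edgeR, DESeq2 1.42.0 and, for the trend, mgcv 1.9.3. Exon sharing and shares outside coding transcripts were computed from the counted exons and GENCODE 44.

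The members and lists were chosen with earlier results of these data known. All members are named, and up to 3 genes per direction of each pathway list, those called with the largest change at a mean log2 CPM of at least 1. Same-numbered libraries are not stated to share a culture day. P-values set the group difference against the spread between 2 replicates per group, which edgeR moderates with information from all genes tested. Some items are not reported here.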

Additional observations from a re-analysis of the deposited data

How the results depend on the processing

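Direction and call held in all 17 alternatives for 24 of 35 members. A member not called counted as held while it stayed uncalled, whether or not its FDR stayed below 0.05. Of the members called, ELOVL2, ELOVL7, TECR, CPT2 and ACADVL held, and FADS2, ACSL3, MLYCD and AMACR lost their call in some alternatives. With the replicate block (deviations of same-numbered libraries correlated at 0.0284 over all genes tested and 0.139 over those with a mean log2 CPM over 5, and no source says that the numbers pair cultures) 3745 genes were called lower and 3422 higher, and no member changed its call. Oxidation genes called lower numbered 1 in place of 3 under upper-quartile normalization, glmTreat, an FDR below 0.01 and, chosen after seeing the data, members sharing at most 10% of exon bases, and 1 to 2 with single libraries left out. With the length and GC trend removed, alone or with the replicate block, 2 oxidation genes were called higher, in place of 1. Genes called higher over all genes tested then numbered 3637 and 3381, in place of 3698. glmTreat called 2350 genes lower and 2455 higher. The synthesis and oxidation medians were -0.31 and -0.0026 under upper-quartile normalization, -0.67 and -0.37 with library totals, -0.64 and -0.33 without a filter, -0.16 and 0.25 with the trend removed, and -0.16 and 0.25 with trend and replicate block, and the median of all genes moved from -0.04 to 0.14, -0.23 and -0.41 in the first 3 of these. The oxidation median was -0.13 with at least 10 counts in every library and -0.15 to -0.019 with single libraries left out. The synthesis median was -0.62 without SREBF1 and ACACB. The change in the summed log2 ratio was -0.20 without FASN and ACADVL. Directions reversed, none of them called at 2-fold, for CPT1A (0.16 with upper quartile, 0.025 with at least 10 counts, 4.31e-05 with DESeq2, 0.25 with the trend removed, with and without the block, and -0.029 to 0.018 with single libraries left out), ACACB (-0.64 to 0.020 with single libraries left out), and, with the trend removed without and with the block, ACADM (0.21 and 0.21), HSD17B4 (0.37 and 0.37) and ETFB (0.13 and 0.12). The cause of these moves was not tested, apart from the fewer members or libraries in some. Depth limits the CPI-455 libraries most, where MLYCD and AMACR rested on 10 to 98 fragments and DGAT2 and MGLL on 0 to 18.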
